A study of Mus musculus with 12 samples.

Results

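The nuclear genes that encode the subunits of the mitochondrial respiratory chain and of the ATP synthase were followed across 12 mouse liver RNA-Seq libraries. Genes were taken by symbol, as every Nduf subunit of the a, b, c, s or v series, Sdha to Sdhd, every Uqcr gene, the Cox4 to Cox8 genes and the Atp5 genes. The rule found 82 of the 17007 genes in the deposited table, namely 35 of complex I, 4 of complex II, 8 of complex III, 18 of complex IV and 17 of complex V. Ndufa4 and its paralog Ndufa4l2 were counted with complex IV, where the NDUFA4 protein is now placed. The 4 groups had 3 libraries each. Normal liver (NL) came from wild-type C57BL/6 mice. The tumors were c-MYC/MCL1/RictorKO Tsc2KO hepatocellular carcinomas, raised by hydrodynamic tail vein injection of c-MYC, MCL1 and Cre plasmids into C57BL/6J mice with floxed alleles, Rictor fl/fl and Tsc2 fl/fl. Their hosts received vehicle, the ATP-competitive mTOR kinase inhibitor MLN0128 or the rapamycin analog everolimus by gavage. Doses were 1 mg/kg/day. The study's methods give dosing on 6 days a week for 3 weeks from day 6 after injection, with sacrifice at 3.7 weeks. Its account of the sequencing experiment, however, gives 3 days of treatment. These sources disagree, so the length of exposure of these tumors is uncertain. As the study describes them, all tumor groups carried the same transgenes and the same deletions, and only hepatocytes that took up the Cre plasmid lost Rictor and Tsc2. The comparison of vehicle with NL therefore joins transformation, both oncogenes, both deletions and the floxed alleles of the hosts. It also joins plasmid injection and gavage, which are not stated for NL. These cannot be told apart.

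Complexes I to IV pass electrons from NADH and succinate to oxygen and, apart from complex II, pump protons across the inner mitochondrial membrane. Complex V lets the protons flow back through its membrane part, Fo, and uses their energy in its catalytic head, F1, to make ATP. Most subunits are encoded in the nucleus and imported, while a small core of complexes I, III, IV and V is encoded by mitochondrial DNA, and complex II is wholly nuclear. Liver is rich in mitochondria, since gluconeogenesis, urea synthesis and fatty acid oxidation depend on them.

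The libraries held between 17188570 and 25208871 reads, as recovered from the FPKM values. All 82 genes passed the filter of 0.5 FPKM in at least 3 libraries, as did 14397 genes in all. In NL, 54 of the 82 genes had a mean of at least 100 FPKM, while 7 stayed below 10. Tsc2 stood at 4.5 to 5.32 FPKM in NL and at 2.01 to 2.31 in vehicle, and Rictor at 1.65 to 2.57 and 1.05 to 1.5. With MLN0128 and everolimus, Tsc2 stood at 2.81 to 3.96 and 2.78 to 2.87 FPKM, higher with MLN0128 than in vehicle (0.46, limma adjusted p = 0.0114), and Rictor at 1.65 to 2.21 and 1.58 to 1.93, so that the treated tumors overlapped NL for Rictor. The summed level of 8 hepatocyte markers ranged from 84821 to 104408 FPKM in NL, from 4142 to 6286 in vehicle, from 2166 to 4431 in MLN0128 and from 3371 to 8316 in everolimus tumors. Other lists differed too. The sum of 8 macrophage markers was 303 to 373 FPKM in NL, 122 to 169 in vehicle, 48.1 to 77.2 in MLN0128 and 78.1 to 200 in everolimus, and that of 4 cholangiocyte markers 39.8 to 43.3, 35.0 to 88.6, 10.1 to 27.8 and 16.6 to 60.5. The sum of 6 endothelial markers was 49.8 to 59.7 FPKM in NL and 10.2 to 19.04 over all tumors, and that of 5 erythroid markers 289 to 653 and 16.1 to 131. No defining marker of these lists was at 0 throughout a group, and their part in the results was not tested. In these bulk samples, fewer cells of a type and less RNA per cell cannot be told apart. MLN0128 replicates 1 and 2 held Xist RNA, at 191 and 155 FPKM, and listed the Y-linked genes Ddx3y, Uty, Kdm5d and Eif2s3y at 0, unlike the other 10 libraries. Sex and treatment were thus partly confounded, also for the Tsc2 call above. In MLN0128 replicate 3, Tsc2 stood at 3.4 FPKM. The counts and the other named calls of MLN0128 are also given without both libraries with Xist RNA. That leaves MLN0128 replicate 3 alone in its group, so the spread then comes from the other groups and the lone library is assumed to vary like them.

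The genes lay on 19 chromosomes of GRCm38, 3 of them on the X. They were short, with a median exon length of 1559.5 bases against 3780 for all tested genes. A transcript of another gene matched 28 of them over at least 150 bases at 95% identity or more, and for 19 that gene was a pseudogene, so reads of these could have been split. Exons of 26 overlapped an antisense gene, and the counting was not stated to use strand. Among the 67 genes with an entry in the promoter table, 6 had the E-box CACGTG that MYC binds in the 250 bases before the start (8.96%, against 8.56% of 9899 tested genes and 6.05% of all 27025 windows). The core CGCATGCG of the nuclear respiratory factor NRF1 was found in 6 (8.96%, against 3.23% and 1.58%), and CCGGAAG, an ETS site of the kind GABP binds, in 11 (16.4%, against 13.8% and 7.05%). AAGATGGC, bound by YY1, was in none, against 2.01% and 1.59%. Both strands were searched, and no motif is contained in another. The RefSeq windows (GRCm38.p6) below are of 4 genes with results described further on, printed 5′ to 3′ on the strand of the gene, with any such motif in capitals. Ndufs5, on the minus strand at chr4:123718187-123718436, had none of the 4 motifs. Atp5g3, minus strand at chr2:73911327-73911576, had the E-box. Atp5e, minus strand at chr2:174464102-174464351, had the ETS site, and Atp5l, minus strand at chr9:44920743-44920992, had the E-box, the NRF1 core and the ETS site.
Ndufs5: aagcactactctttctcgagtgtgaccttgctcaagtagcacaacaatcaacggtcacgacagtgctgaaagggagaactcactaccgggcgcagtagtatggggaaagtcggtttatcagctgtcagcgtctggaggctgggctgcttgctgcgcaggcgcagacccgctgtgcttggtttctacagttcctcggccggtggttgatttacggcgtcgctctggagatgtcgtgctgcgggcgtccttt
Atp5g3: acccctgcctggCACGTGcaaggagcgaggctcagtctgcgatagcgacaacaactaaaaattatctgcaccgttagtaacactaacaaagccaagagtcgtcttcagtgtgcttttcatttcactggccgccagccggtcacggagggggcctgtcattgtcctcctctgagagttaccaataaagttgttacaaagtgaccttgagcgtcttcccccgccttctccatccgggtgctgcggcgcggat
Atp5e: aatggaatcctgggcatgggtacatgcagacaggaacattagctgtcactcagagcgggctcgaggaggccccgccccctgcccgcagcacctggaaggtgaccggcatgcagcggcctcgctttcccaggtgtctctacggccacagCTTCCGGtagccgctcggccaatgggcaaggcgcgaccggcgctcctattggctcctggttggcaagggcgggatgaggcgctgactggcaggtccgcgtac
Atp5l: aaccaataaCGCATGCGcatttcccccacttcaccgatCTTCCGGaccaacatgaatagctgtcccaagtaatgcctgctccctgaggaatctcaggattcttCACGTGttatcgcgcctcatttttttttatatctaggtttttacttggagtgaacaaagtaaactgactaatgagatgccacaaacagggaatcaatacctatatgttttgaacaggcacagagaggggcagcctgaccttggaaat

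On the authors' scale, vehicle-treated tumors had less of most subunit transcripts than NL. Of the 82 genes, 55 were lower and 4 higher by limma's moderated test at an adjusted p below 0.05, against 33.0% and 36.0% of all tested genes. Values are log2 fold changes of FPKM + 1, which understate the change of low genes. The median of the 82 was -0.72, against 0.06 for all genes. The 3 vehicle libraries lay below all 3 NL libraries for 66 genes and above them for 4, against backgrounds of 35.1% and 39.0%. When a change beyond 1.5-fold was required, 23 were called lower and 1 higher, against 16.9% and 15.9%. Highly expressed genes fell as a whole, however. Among the 1103 tested genes at or above the lower quartile of the subunits' mean level, 47.3 FPKM, a set chosen after values were seen, 53.9% were called lower with a median of -0.63, and among the 61 subunits in that range 72.1%, with a median of -0.83.

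The direction of this comparison depended on the scaling of the libraries. The authors' FPKM summed to between 764004 and 779803 in NL and to between 317930 and 346862 in vehicle, and the scaling factors behind these values, recovered from them, were 0.585 to 0.595 and 1.12 to 1.14. On a TPM scale, 5 subunits were called lower and 43 higher, against 11.7% and 67.0% of all tested genes. On plain library totals 12 were lower and 28 higher, against 15.2% and 61.3%. Those scales moved the median of all genes to 1.00 and 0.62, and relative to it the subunits stood at -0.54 and -0.42, against -0.78 on the authors' scale. Relative to the typical gene, the median subunit was thus lower under each of these 3 scalings. A scaling multiplies a whole library by a single factor, however, so this difference can change only through the pseudocount of 1 added before the logarithm. Its sign on the other scales is therefore no separate support. The summed level of the 82 rose as a share of all FPKM, from 1.94 to 2.02% in NL to 2.50 to 2.96% in vehicle. Falls and rises between vehicle and NL below are on the authors' scale. Among the genes named here, Ndufs1, Ndufv1, Sdhb, Sdhd, Uqcrfs1, Cox6a1, Cox6b1, Atp5c1, Atp5d and Atp5g2 were called lower on that scale and higher on the TPM scale, and Ndufs5, Ndufs6, Cox8a and Atp5l had positive estimates there that were not called. In contrast, the calls of Ndufb3, Uqcrb and Cox6a2 were kept under all 24 other settings.

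**Figure D1:**
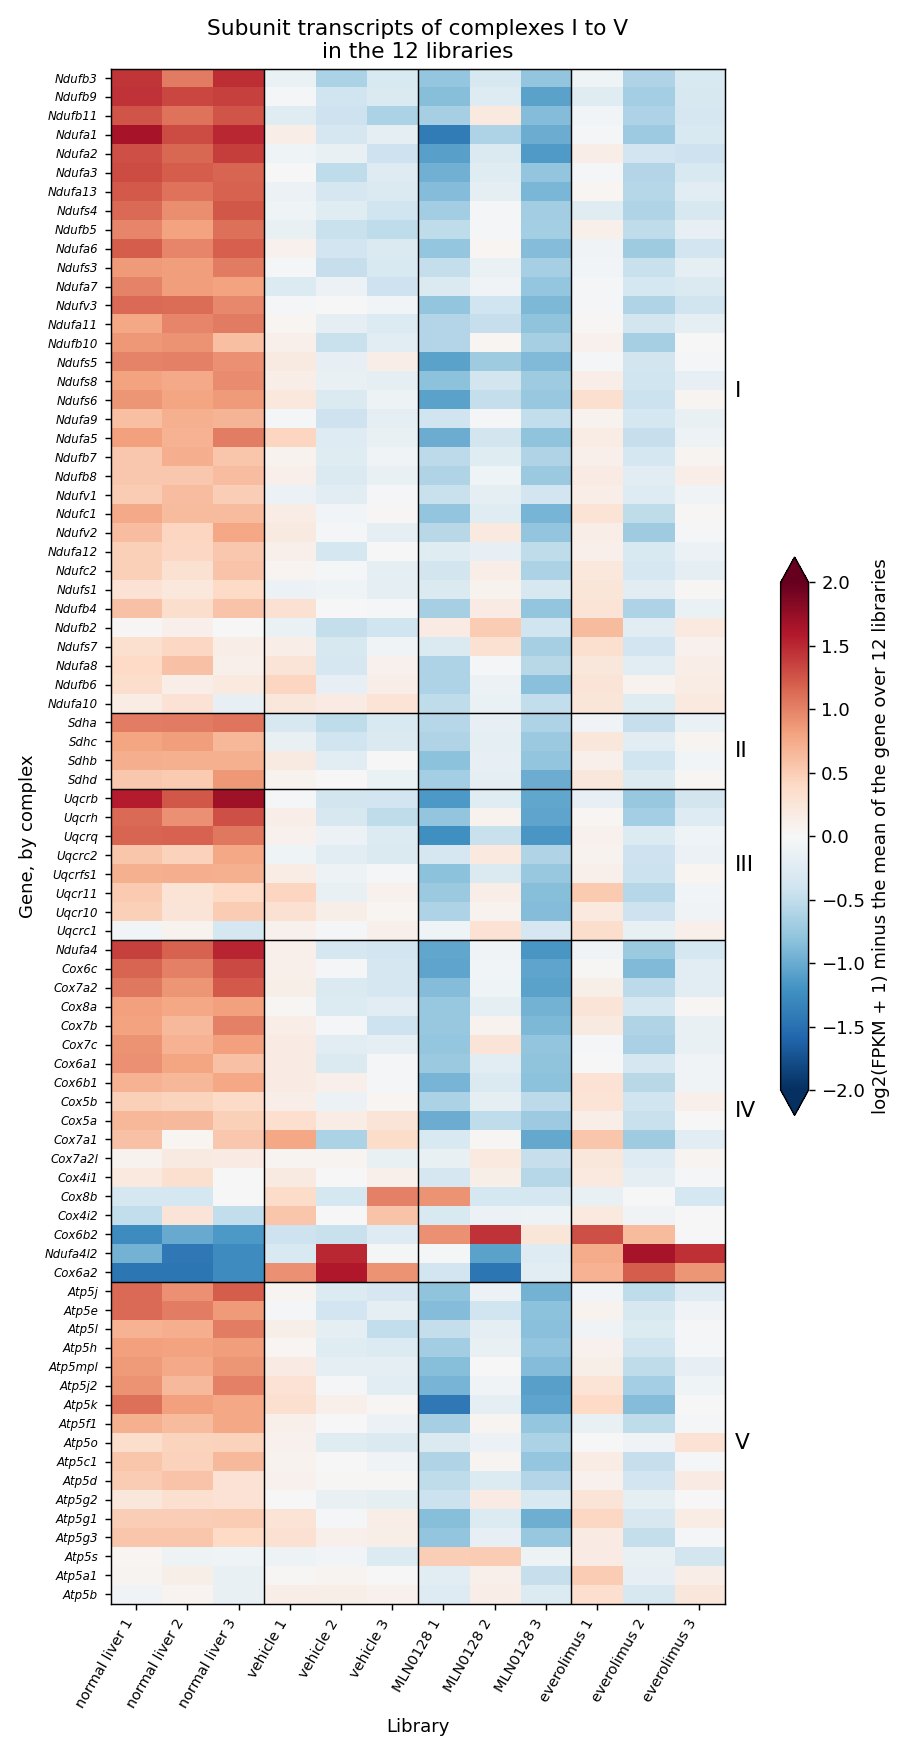
Level of 81 of the 82 subunit genes (rows, ordered within complexes I to V by their change between vehicle and normal liver) in the 12 libraries (columns), as log2(FPKM + 1) minus the mean of the gene over all libraries. Normal liver is high in most rows, Cox6a2, Ndufa4l2 and Cox6b2 show the opposite pattern, and MLN0128 replicate 2 is the highest of its group for 78 of the 82 genes.

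Most genes of complex I, the NADH dehydrogenase, were lower in vehicle, with 27 of 35 genes called lower, none higher and a median of -0.90. Of the 7 core subunits that carry the flavin, the iron-sulfur clusters and the quinone site, 4 fell and the median was -0.62. Of the 28 accessory subunits, which surround the core, 23 fell, with a median of -0.95. Ndufb3, an accessory subunit of the membrane arm, had 172, 131 and 177 FPKM in NL and 57.4, 40.2 and 51 in vehicle. It showed the largest fall of the complex (-1.67, SE 0.19, limma adjusted p = 1.26e-05). Ndufv1, which holds the flavin that accepts electrons from NADH, had 98.4, 106 and 97.3 FPKM in NL and 63.7, 58.8 and 67.1 in vehicle. Its groups did not overlap (-0.66, SE 0.13, limma adjusted p = 0.00056). Ndufs1, the largest iron-sulfur subunit, fell by 0.43 (limma adjusted p = 0.0162). At the other end, the accessory subunit Ndufa10 had 39.2 to 53.8 FPKM in NL and 49 to 53.2 in vehicle, and these groups overlapped (0.13, limma adjusted p = 0.507).

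All 4 subunits of complex II, the succinate dehydrogenase of the citrate cycle, fell, with a median of -0.88. Sdha, the flavoprotein that oxidizes succinate, had 196, 198 and 201 FPKM in NL and 76.6, 66.9 and 77 in vehicle. The vehicle values were well apart from the NL values (-1.42, SE 0.15, limma adjusted p = 5.15e-06), although the call was lost on the TPM scale (-0.23, limma adjusted p = 0.0694). Sdhb, the iron-sulfur subunit, had 125 to 127 FPKM in NL and 65.9 to 86.3 in vehicle (-0.72, SE 0.19, limma adjusted p = 0.00478).

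In complex III, the cytochrome bc1 complex, 5 of 8 genes fell, with a median of -0.75. Uqcrb, a small quinone-binding subunit, had 342, 270 and 372 FPKM in NL and 112, 88.6 and 86.9 in vehicle. This was the largest fall among all 82 genes (-1.76, SE 0.24, limma adjusted p = 4.77e-05), though 3 pseudogenes match Uqcrb. Uqcrfs1, the Rieske iron-sulfur protein, had 366 to 369 FPKM in NL and 208 to 246 in vehicle (-0.71, SE 0.18, limma adjusted p = 0.00394). Uqcrc1, a core subunit of the matrix side, had 72.1 to 96.5 FPKM in NL and 90.2 to 99 in vehicle, and no difference was detected (0.16, SE 0.18, limma adjusted p = 0.443).

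Complex IV, cytochrome c oxidase, was the mixed one. Here 8 of 18 genes fell and 4 rose, or 44.4% and 22.2% against 33.0% and 36.0% of all tested genes, with a median of -0.38. Ndufa4 had 488, 428 and 546 FPKM in NL and 203, 149 and 145 in vehicle. It fell furthest within the complex (-1.56, SE 0.28, limma adjusted p = 0.000352), a call lost on the TPM scale (-0.37, limma adjusted p = 0.115). Cox4i1, the ubiquitous form of the largest nuclear subunit, had 345 to 425 FPKM in NL and 341 to 386 in vehicle (-0.08, SE 0.19, limma adjusted p = 0.705). Cox5a, a matrix-side subunit, had 78.4 to 89.1 FPKM in NL and 62.4 to 70.8 in vehicle (-0.35, SE 0.16, limma adjusted p = 0.0789). The 4 genes that rose, Cox6a2, Ndufa4l2, Cox6b2 and Cox4i2, are all tissue-restricted or condition-specific isoforms and are described with their counterparts below.

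Among complex V genes, 11 of 17 fell, with a median of -0.57. The catalytic subunits of F1 did not: Atp5b, the β subunit that makes ATP, had 464, 503 and 439 FPKM in NL and 533, 527 and 514 in vehicle (0.16, SE 0.19, limma adjusted p = 0.46), and Atp5a1, the α subunit, 411 to 495 and 461 to 472 (0.02, SE 0.20, limma adjusted p = 0.934). The other 3 F1 genes, Atp5c1, Atp5d and Atp5e, were called lower on the authors' scale. On the TPM scale, however, Atp5c1 and Atp5d were called higher (0.64 and 0.78, limma adjusted p = 0.000979 and 5.21e-05), as Atp5d was on plain library totals (0.52, limma adjusted p = 0.00346), and Atp5e had an estimate of -0.02 (limma adjusted p = 0.918). Atp5j, the coupling factor 6 that joins F1 to the stalk, had 130, 111 and 137 FPKM in NL and 61.2, 48.3 and 46.4 in vehicle. It had the largest fall of the complex (-1.27, SE 0.21, limma adjusted p = 0.000199), which was lost on the TPM scale (-0.08, limma adjusted p = 0.62) and on plain library totals (-0.34, limma adjusted p = 0.0891). On the TPM scale Atp5b and Atp5a1 were called higher (1.36 and 1.22, limma adjusted p = 1.09e-06 and 5.52e-06). These catalytic genes stood above Atp5j on both scales, but a single factor per library cannot change that order apart from the pseudocount. The second scale is therefore no separate support for it.

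**Figure D2:**
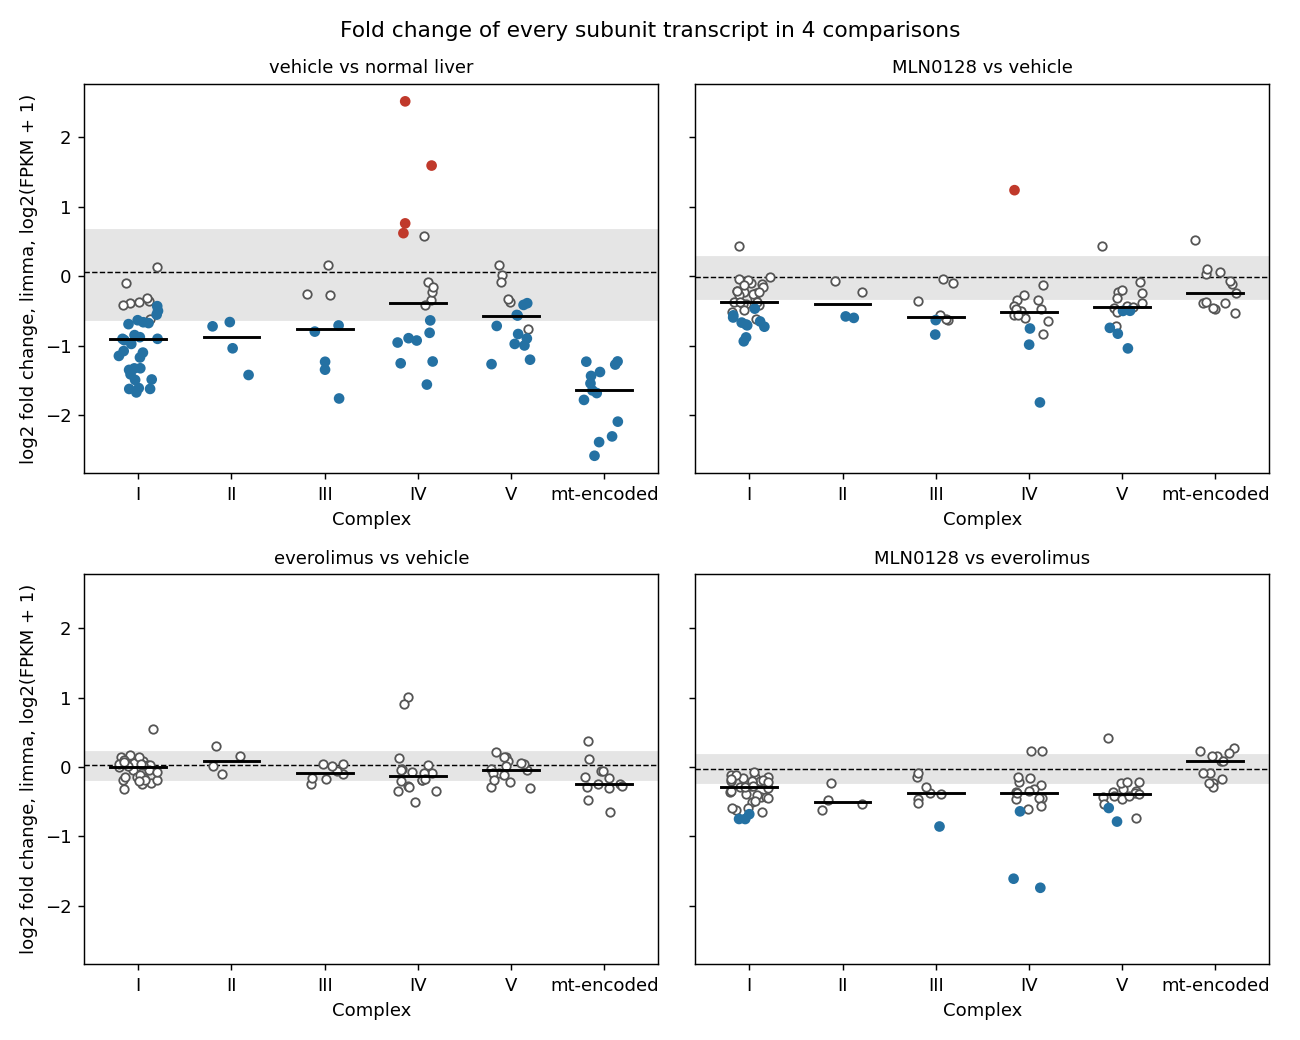
Log2 fold change of every subunit transcript (limma on log2(FPKM + 1)) by complex, with the 13 mitochondrially encoded subunits beside them, in the 4 comparisons. Blue and red points were called lower and higher at an adjusted p below 0.05, open points were not called, bars are group medians, the dashed line is the median of all 14397 tested genes and the grey band their middle 50%. Falls predominate in vehicle against normal liver and again in MLN0128 against vehicle, and everolimus against vehicle has no filled point.

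With MLN0128, part of the chain stood lower than in vehicle. Of the genes, 22 of 82 were lower and 1 was higher, or 26.8% and 1.22%, against 17.1% and 14.9% of all tested genes. The median was -0.44 against -0.01 for all genes, and 79 of the 82 estimates were negative. Every MLN0128 value was below every vehicle value for 22 genes, against 23.4% of all genes. Beyond 1.5-fold, 1 gene was called lower, Cox6a2, and 0 higher, against 1.65% and 0.479%. On the TPM scale 15 were lower and 3 higher, against 8.81% and 24.6% of all genes. The lower calls of Sdhb, Sdhd, Ndufa10, Ndufa11, Ndufb6, Ndufs8, Atp5d and Atp5e were lost there, and Cox4i2 was newly called lower. On plain library totals 20 were lower and 2 higher, against 12.7% and 23.2%. Falls and rises with MLN0128 below are on the authors' scale unless stated. Among the highly expressed genes defined above, the share called lower was 29.0%, with a median of -0.27, and for the 61 subunits in that range it was 27.9%, with a median of -0.45. The count of calls was thus near that of other abundant genes, while the median was lower.

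These counts rested on single libraries, because the tumors of a group differed. In MLN0128 replicate 2 the median subunit stood at -0.84 relative to NL, within the vehicle values of -0.57, -0.85 and -0.79, whereas MLN0128 replicates 1 and 3 stood at -1.37 and -1.49. MLN0128 replicate 2 had the highest value of its group for 78 of the 82 genes, and it was under each vehicle value for 23 genes, against 70 and 77 for replicates 1 and 3. Leaving it out raised the count of lower genes to 49, against 15.7% of all genes. Leaving out MLN0128 replicate 1, MLN0128 replicate 3, vehicle replicate 1 or vehicle replicate 3 cut it to 6, 10, 8 or 12. Shares of all genes in those fits are not given, so these counts show only how far the calls rested on single libraries. The 2 libraries with Xist RNA differed. Without both, MLN0128 was represented by replicate 3 alone, the lowest of its group, and 15 genes were lower and 0 higher, against 7.50% and 4.72% of all genes, with a median of -0.66. Of the 23 genes called in the full set, 11 were still called and 12 were not. Among those described below, the lost calls were of Uqcrfs1 (limma adjusted p = 0.0506), Cox6b1 (0.0653), Ndufa10 (0.0687), Atp5k (0.0699), Atp5e (0.0744), Atp5d (0.0924) and Cox6b2 (0.295), each with the same sign. The single higher gene, Cox6b2, was joined by Atp5s and Ndufb2 without MLN0128 replicate 3.

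**Figure D3:**
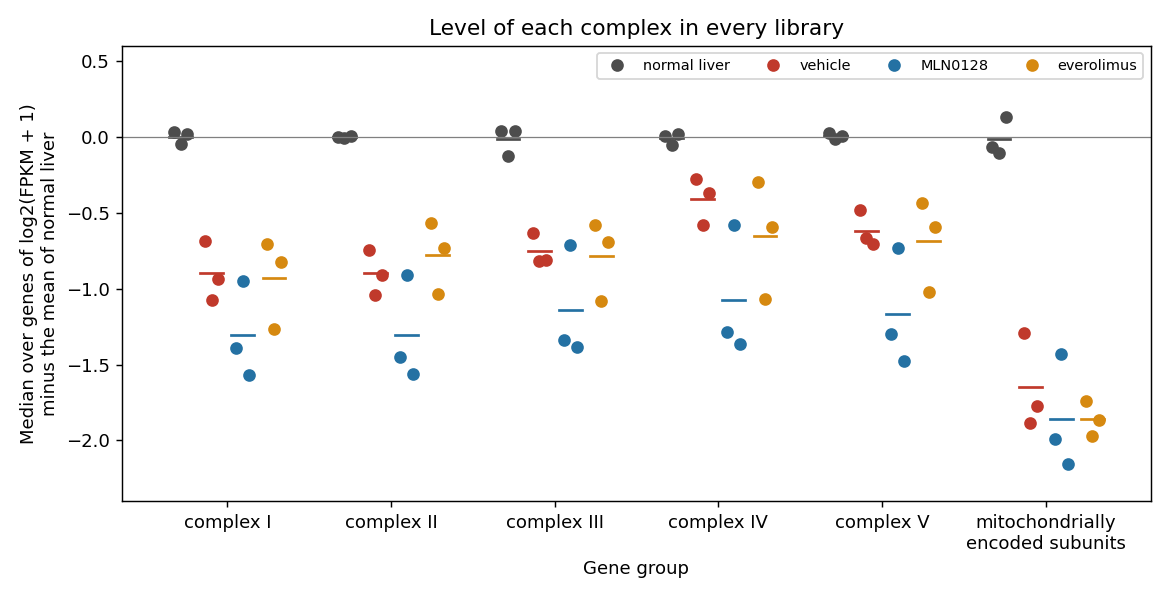
Median over the genes of each complex, and over the 13 mitochondrially encoded subunits, of log2(FPKM + 1) minus the mean of normal liver, in every library (points) with the group mean (bar). The order of libraries within a group is nearly the same in each complex, with MLN0128 replicate 2 at the level of vehicle and everolimus replicate 2 the lowest of its group.

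In complex I, 10 of 35 genes fell with MLN0128, or 28.6% against 17.1% of all tested genes. They were 1 of the 7 core subunits, or 14.3% and so near that share, and 9 of the 28 accessory subunits, or 32.1%. Ndufs5 had 65.6, 51.2 and 63.4 FPKM in vehicle and 26.9, 34.8 and 30.9 in MLN0128. All MLN0128 values were below all vehicle libraries, replicate 2 included (-0.94, SE 0.14, limma adjusted p = 0.000776), and besides the 1.5-fold test no setting removed this call. NDUFS5 is an accessory subunit of the intermembrane-space side, and its promoter window above holds none of the searched motifs. The core genes Ndufv1 and Ndufs1 had estimates of -0.21 and -0.05, and neither passed the test (limma adjusted p = 0.219 and 0.798). Ndufa10, which had not been called between vehicle and NL, fell by 0.59 (limma adjusted p = 0.0175).

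Within complex II, 2 of 4 genes fell, Sdhb and Sdhd, or 50% against 17.1% of all tested genes. Sdhd, one of the membrane anchors, had 235, 226 and 203 FPKM in vehicle and 140, 196 and 112 in MLN0128 (-0.60, SE 0.21, limma adjusted p = 0.0449). Sdhb had 86.3, 65.9 and 76.6 FPKM in vehicle and 42.9, 68 and 43.9 in MLN0128, so the groups overlapped through MLN0128 replicate 2 (-0.58, SE 0.19, limma adjusted p = 0.0351). The call of Sdhd was lost under 14 of 24 other settings. Sdha, in contrast, had 62.2 to 85.2 FPKM with MLN0128 against 66.9 to 77 in vehicle (-0.07, SE 0.15, limma adjusted p = 0.738).

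In complex III, 2 of 8 genes fell, Uqcrq and Uqcrfs1, or 25% against 17.1% of all tested genes. Uqcrq, a small subunit that binds beside cytochrome b, had 152, 131 and 118 FPKM in vehicle and 60.6, 105 and 63.1 in MLN0128. The MLN0128 libraries were all below vehicle (-0.84, SE 0.20, limma adjusted p = 0.00813). Uqcrfs1 had 208 to 246 FPKM in vehicle and 126, 182 and 131 in MLN0128 (-0.63, SE 0.18, limma adjusted p = 0.0195). Uqcrc1 again showed no detectable difference (-0.10, SE 0.18, limma adjusted p = 0.721).

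Complex IV had 3 lower genes of 18, Cox5a, Cox6b1 and Cox6a2. This was 16.7%, near the 17.1% of all tested genes. Cox5a had 70.8, 62.4 and 67.5 FPKM in vehicle and 27.8, 39.2 and 33.7 in MLN0128. The groups were far apart (-0.99, SE 0.16, limma adjusted p = 0.00132), and Cox5a had not been called between vehicle and NL. Cox5a has an overlapping antisense gene, Gm26631. Cox4i1 had 341 to 386 FPKM in vehicle and 271, 371 and 231 in MLN0128 (-0.35, SE 0.19, limma adjusted p = 0.173).

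For the ATP synthase, 5 of 17 genes fell, or 29.4% against 17.1% of all tested genes. They were the F1 genes Atp5d and Atp5e and the genes Atp5g1, Atp5g3 and Atp5k. Atp5k, the small e subunit that helps the enzyme form dimers, had 123, 106 and 99.9 FPKM in vehicle and 36.1, 86.1 and 46.7 in MLN0128. Its fall was the largest of the complex but also among the least even (-1.04, SE 0.33, limma adjusted p = 0.0323), and leaving out any vehicle library, MLN0128 replicate 1 or MLN0128 replicate 3 removed the call. Atp5e, the ε subunit, had 70.3, 54.5 and 62.5 FPKM in vehicle and 38.5, 53.9 and 40 in MLN0128 (-0.50, SE 0.16, limma adjusted p = 0.0344). Atp5a1 and Atp5b had estimates of -0.22 and -0.24 and did not pass (limma adjusted p = 0.418 and 0.354).

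With everolimus, 0 of the 82 genes were called against vehicle by limma's moderated test, the 1.5-fold test or voom on the recovered reads, where 6.05% of all tested genes were lower and 3.78% higher. At an unadjusted p below 0.05, 2 were higher, Cox6b2 and Ndufb2, and 0 lower. One call appeared in some fits with a library left out, Ndufa4l2 without vehicle replicate 2 and Cox6b2 without MLN0128 replicate 2, MLN0128 replicate 3 or everolimus replicate 3. The median was -0.04 against 0.03 for all genes, and 33 estimates were positive and 49 negative. Everolimus libraries lay wholly below vehicle for 1 gene, Cox5a, and wholly above for 1, Cox6b2, against backgrounds of 14.8% and 17.6%. The MLN0128 and everolimus comparisons share the vehicle libraries, so their values are only set side by side. The everolimus estimates were 0.07 for Ndufv1, 0.15 for Sdha, -0.11 for Uqcrfs1, -0.35 for Cox5a and -0.03 for Atp5b, with SEs of 0.13 to 0.19. Everolimus replicate 2 was the lowest of its group for 76 of the 82 genes, with a median of -1.11 relative to NL, against -0.53 and -0.73 in replicates 1 and 3, and this spread limits what could be detected.

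MLN0128 and everolimus were also compared directly. Here 9 of 82 genes were lower with MLN0128 and none higher, or 11.0% and 0%, against 5.54% and 3.99% of all tested genes, with a median of -0.37 against -0.03. All 3 MLN0128 libraries lay below all 3 everolimus libraries for 11 genes, against 15.2%. Among the highly expressed genes the share called lower was 11.5%, as it was among the 61 subunits in that range, with medians of -0.23 and -0.39. The 9 genes were Ndufs5, Ndufs6, Ndufb6, Uqcrq, Cox5a, Cox6a2, Ndufa4l2, Atp5e and Atp5g1. On the TPM scale 4 genes were lower, Ndufs5, Uqcrq, Cox6a2 and Atp5g1, and 1 higher, Atp5s, against 1.36% and 8.72% of all genes. There 25 of the 82 estimates were positive, and the median was -0.13 against 0.18 for all genes. Uqcrq had 60.6, 105 and 63.1 FPKM with MLN0128 and 151, 118 and 135 with everolimus (-0.85, SE 0.20, limma adjusted p = 0.0249). Ndufs6, an accessory subunit of complex I with an antisense neighbor, Mrpl36, had 44.8, 68.2 and 56.2 FPKM with MLN0128 and 119, 70.8 and 99 with everolimus. These groups did not overlap, by a small margin (-0.75, SE 0.21, limma adjusted p = 0.043). Atp5g1 had 26, 39.5 and 23.7 FPKM with MLN0128 and 64, 38.2 and 53.4 with everolimus, and the groups met (-0.79, SE 0.21, limma adjusted p = 0.0364). Without MLN0128 replicates 1 and 2, with replicate 3 alone, only Uqcrq of the 9 was still called (-1.07, limma adjusted p = 0.0413), against 0.646% of all genes. The other 8 kept their sign, with limma adjusted p from 0.0611 for Ndufb6 and 0.0677 for Atp5g1 to 0.170 for Cox5a, 0.192 for Ndufs6 and 0.208 for Ndufa4l2. The count fell to 4 without NL replicate 1 or vehicle replicate 3, to 1, 3, 3 and 0 without MLN0128 replicate 1, MLN0128 replicate 3, everolimus replicate 1 and everolimus replicate 3, and rose to 22 and 19 without MLN0128 replicate 2 and everolimus replicate 2. In a fit of the compared groups alone it was 0, with 19 genes at an unadjusted p below 0.05. Shares of all genes in these fits are not given, so the counts show only their dependence on the samples used.

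Several subunits of complexes IV and V exist as isoforms from different genes, and their ratio does not depend on library scaling. Cox6b2, first known from testis, is the counterpart of the ubiquitous Cox6b1, and both sit on the intermembrane-space side, where 2 units of the oxidase meet. Cox6b2, at chr7:4751792-4753094, had 12.1, 14.6 and 13.1 FPKM in NL, 22.5, 21.9 and 25.1 in vehicle, 57.8, 83.9 and 36.1 in MLN0128 and 75, 47.2 and 30.2 in everolimus. Vehicle stood above NL (0.76, SE 0.31, limma adjusted p = 0.0477), a call lost without any 1 library of either group, and MLN0128 above vehicle (1.24, SE 0.31, limma adjusted p = 0.0114), while everolimus missed the threshold, with no overlap with vehicle (1.01, SE 0.31, limma adjusted p = 0.0631). On the authors' scale it was the only one of the 82 genes called higher with MLN0128. Without MLN0128 replicates 1 and 2 that call was lost (0.62, limma adjusted p = 0.295). Cox6b1 moved the other way, with 551 to 593 FPKM in NL, 339 to 386 in vehicle and 182, 282 and 196 in MLN0128 (-0.75 against vehicle, SE 0.22, limma adjusted p = 0.0218). The share of Cox6b2 in the sum of the pair was 2.12 to 2.58% in NL, 5.51 to 6.89% in vehicle, 15.6 to 24.1% in MLN0128 and 8.38 to 16.7% in everolimus, so that the ranges of NL, vehicle and MLN0128 did not overlap.

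Cox6a2 is the heart and skeletal muscle form of the subunit whose common form is Cox6a1. At chr7:128205435-128206387, it was listed at 0, 0 and 0.141 FPKM in NL, the last being 1 read, and had 4.12, 7.25 and 4.1 FPKM in vehicle. On 229 reads in vehicle, the ratio to NL was 112, with a 95% exact interval of 19.9 to 4451 that covers counting error only. In MLN0128 it had 1.09, 0 and 1.35 FPKM, below vehicle (-1.82, SE 0.29, limma adjusted p = 0.00112) and below the 3.43, 5.29 and 4.01 of everolimus (-1.61, SE 0.29, limma adjusted p = 0.0115). With MLN0128 replicate 3 alone, the first call held (-1.35, limma adjusted p = 0.0191) and the second was lost (-1.14, limma adjusted p = 0.0863). Cox6a1 remained far more abundant, at 265 to 872 FPKM over all libraries. The exons of Cox6a2 overlap the antisense gene Itgad, which was at 0 in NL, at 0.286 to 0.358 FPKM in vehicle, at 0, 0.0104 and 0.0371 in MLN0128 and at 0.0089 to 0.0704 in everolimus. Without strand, reads of the overlap cannot be told apart. Of 9 striated muscle markers, 2 were in the table. Ckm was at 0 in NL, 0.195 to 0.663 FPKM in vehicle, 2.97 to 8.53 in MLN0128 and 0.941 to 7 in everolimus, and Ttn reached 0.15 FPKM in MLN0128 replicate 1 and 0.00599 in the other libraries. The part of muscle tissue in the Cox6a2 values was not tested.

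Ndufa4l2, a hypoxia-inducible paralog of Ndufa4, lies at chr10:127514967-127517154. It had 1.78, 0.994 and 1.23 FPKM in NL, 3.32, 14.2 and 4.19 in vehicle, 4.24, 1.54 and 3.47 in MLN0128 and 7.98, 15.7 and 13.8 in everolimus. Vehicle exceeded NL (1.59, SE 0.43, limma adjusted p = 0.00596), with vehicle replicate 2 far above the other two, and MLN0128 was below everolimus (-1.74, SE 0.43, limma adjusted p = 0.0303), a call lost with MLN0128 replicate 3 alone (-1.55, limma adjusted p = 0.208). Its exons overlap those of Shmt2 on the other strand, a serine-using mitochondrial enzyme that was far more abundant, at 66.7 to 97.6 FPKM in NL, 110 to 152 in vehicle, 58 to 92.2 in MLN0128 and 121 to 196 in everolimus. Shmt2 moved in the same directions (0.68 and -1.09, limma adjusted p = 0.0211 and 0.0187, the second 0.202 with MLN0128 replicate 3 alone), and without strand the reads of the pair cannot be told apart where they overlap. The last gene called higher in vehicle than in NL, Cox4i2, the lung and hypoxia form of Cox4i1, rested on few reads, with 0, 6 and 0 in NL and 18, 7 and 20 in vehicle (0.62, SE 0.21, limma adjusted p = 0.0191). Without NL replicate 1, NL replicate 3, vehicle replicate 1 or vehicle replicate 3, only Cox6a2 and Ndufa4l2 of the 4 stayed called, and without vehicle replicate 2 Cox8b was called in place of Cox6b2.

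**Figure D4:**
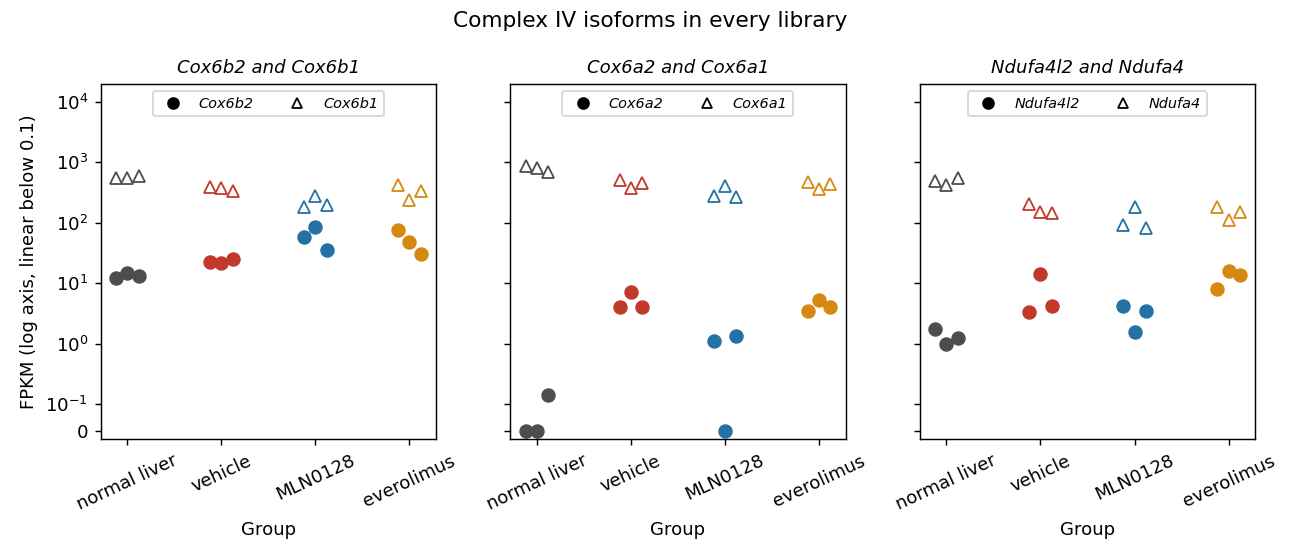
FPKM (log axis, linear below 0.1) of 3 complex IV isoforms (filled circles) and their common counterparts (open triangles) in every library of the 4 groups. Cox6b2 climbs toward Cox6b1 in the treated tumors, Cox6a2 is at or near 0 in normal liver and lowest among tumors with MLN0128, and Ndufa4l2 is highest in vehicle replicate 2 and with everolimus.

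Other pairs did not pass. Cox7a1, the muscle form, had 0.859 to 5.41 FPKM over all libraries with overlapping groups, and its common counterparts Cox7a2 and Cox7a2l had estimates of -1.23 (limma adjusted p = 0.000972) and -0.15 (limma adjusted p = 0.466) in vehicle against NL. The call of Cox7a2 was lost on the TPM scale (-0.03, limma adjusted p = 0.867) and on plain library totals (-0.30, limma adjusted p = 0.216). Cox7a2l, which joins complexes III and IV, stood at 118 to 190 FPKM in all libraries, but was called higher in vehicle on the TPM scale (1.05, limma adjusted p = 3.07e-06) and on plain library totals (0.78, limma adjusted p = 0.000226). Cox8b, another muscle form, was listed at 0 in 6 of the 12 libraries and reached 1.55 FPKM, and its counterpart Cox8a was lower in vehicle than in NL (-0.95, limma adjusted p = 0.00208). Cox6a1, the counterpart of Cox6a2, was lower as well (-0.82, limma adjusted p = 0.00328).

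The c-ring of the ATP synthase is built from one mature protein encoded by 3 genes that differ in their import sequences. Atp5g3 made up most of their summed FPKM, and Atp5g1 the least. The share of Atp5g2 was 20.9 to 22.9% in NL, 20.7 to 21.9% in vehicle, 29.2 to 31.4% in MLN0128 and 24.6 to 28.1% in everolimus. The shares of NL and vehicle overlapped, both drug groups lay above them, and MLN0128 lay above everolimus. In MLN0128, Atp5g1 fell against vehicle (-0.83, SE 0.21, limma adjusted p = 0.0103), as did Atp5g3 (-0.74, SE 0.20, limma adjusted p = 0.0151), whereas Atp5g2 had 82.7, 75.6 and 73.7 FPKM in vehicle and 61.7, 93.2 and 67.3 in MLN0128 (-0.08, SE 0.16, limma adjusted p = 0.727). The Atp5g3 window printed above carries an E-box.

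The 13 subunits encoded by mitochondrial DNA were all called lower in vehicle than in NL, with a median of -1.65 and a range of -2.59 to -1.23. On the TPM scale 5 and on plain library totals 9 of them were called lower and 0 higher, with medians of -0.45 and -0.71. Of all tested genes, 11.7% and 15.2% were called lower on these scales. The catalytic subunit of the oxidase, mt-Co1, had 34900, 34000 and 41000 FPKM in NL and 10000, 7690 and 8110 in vehicle (-2.10, limma adjusted p = 0.00027). None of the 13 was called in the other 3 comparisons, with medians of -0.24 for MLN0128 and -0.24 for everolimus against vehicle, and 0.08 for MLN0128 against everolimus. At an unadjusted p below 0.05 there was 1 higher with MLN0128, 1 lower with everolimus and 0 in the direct comparison. The ratio of their summed FPKM to that of the 82 nuclear genes, which no library scaling alters, was 6.05 to 7.02 in NL, 2.94 to 3.36 in vehicle, 3.70 to 3.85 in MLN0128 and 2.70 to 3.21 in everolimus. NL stood apart from all tumors, and MLN0128 above vehicle and everolimus, which overlapped. Nuclear copies of mitochondrial DNA can take some of these reads, and whether the libraries were made by poly(A) capture or rRNA removal was not stated clearly, so levels of single mitochondrial genes are not compared with each other.

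**Figure D5:**
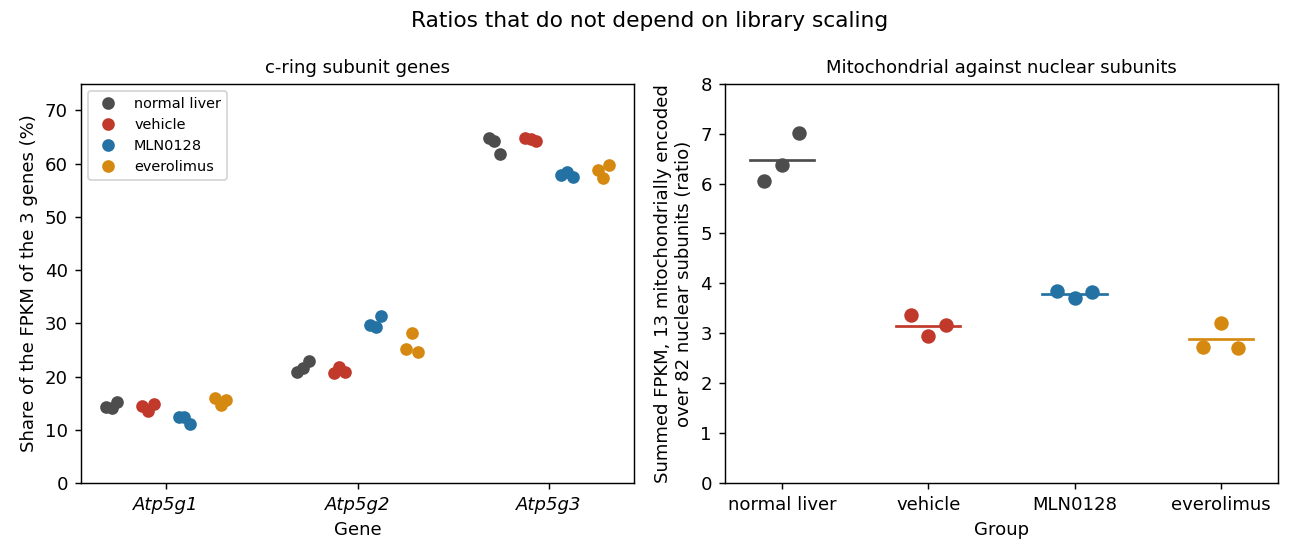
Left, share of each of the 3 c-ring genes in their summed FPKM in every library, in percent. Right, ratio of the summed FPKM of the 13 mitochondrially encoded to the 82 nuclear subunits, with group means as bars. The share of Atp5g2 is highest with MLN0128, and the ratio is highest in normal liver and, among tumors, with MLN0128.

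Genes that work beside the subunits were counted in the same way. Of 9 further structural or carrier genes, 5 were lower and 1 higher in vehicle than in NL, or 55.6% and 11.1% against 33.0% and 36.0% of all tested genes. By TPM 4 were lower and 4 higher, where 11.7% and 67.0% of all genes were. Etfdh, which feeds electrons from fatty acid oxidation into the chain, fell most (-2.03, limma adjusted p = 7.86e-06), and Atpif1, the inhibitor of ATP synthase in reverse, rose from 16.1 to 16.8 FPKM in NL to 46.7 to 61.9 in vehicle (1.65, limma adjusted p = 3.1e-06). With MLN0128, cytochrome c, Cycs, went from 93.1, 65.4 and 65.8 FPKM in vehicle to 22.6, 37.5 and 26.9 (-1.35, limma adjusted p = 0.00129) and was also below everolimus (-1.07, limma adjusted p = 0.0168). With MLN0128 replicate 3 alone, Cycs was still called against vehicle (-1.42, limma adjusted p = 0.0168) but not against everolimus (-1.15, limma adjusted p = 0.0862). Dmac2, a factor named for the distal membrane arm, rose with MLN0128 (0.94, limma adjusted p = 0.00144) and with everolimus (0.61, limma adjusted p = 0.0347), the former lost with MLN0128 replicate 3 alone (0.65, limma adjusted p = 0.0667).

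Among 48 tested assembly factors, which build the complexes without staying in them, 17 were lower and 7 higher in vehicle than in NL, or 35.4% and 14.6% against 33.0% and 36.0% of all tested genes, so the share of lower calls was near that of all genes. With MLN0128 against vehicle 8 were lower and 5 higher, or 16.7% and 10.4% against 17.1% and 14.9%, again near that of all genes, and with everolimus 0 were called. At an unadjusted p below 0.05 with everolimus there were 4 higher and 1 lower. On the TPM scale the first of these comparisons gave 4 lower and 37 higher, where 11.7% and 67.0% of all genes were called, and the second 3 lower and 10 higher, where 8.81% and 24.6% were. With MLN0128 replicate 3 alone, 4 were lower and 0 higher. Sdhaf4, which protects flavinated SDHA, had 36.8 to 45.1 FPKM in NL and 6.4 to 10.5 in vehicle (-2.18, limma adjusted p = 2.19e-06). Cox10, which takes part in the synthesis of heme a for the oxidase, rose in vehicle (1.12, limma adjusted p = 0.000189) and fell with MLN0128 (-0.83, limma adjusted p = 0.00584), from 15.9, 16.4 and 14.3 to 9, 9.38 and 6.77 FPKM. Of the 6 complex III factors 3 rose with MLN0128, Lyrm7 the most (0.60, limma adjusted p = 0.00713), and Uqcc2 fell (-0.82, limma adjusted p = 0.0179). With replicate 3 alone, Cox10 was still called (-1.09, limma adjusted p = 0.0264), while Lyrm7 and Uqcc2 were not (limma adjusted p = 0.135 and 0.166).

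The outer membrane and import machinery carries the nuclear subunits into mitochondria. Of its 19 tested genes, 10 were higher and 4 lower in vehicle than in NL, or 52.6% and 21.1% against 36.0% and 33.0% of all tested genes, with a median of 0.42. By TPM 17 were higher and 0 lower, where 67.0% and 11.7% of all genes were. Tomm5, a small part of the entry pore, had 50.5 to 54.1 FPKM in NL and 161 to 207 in vehicle (1.76, limma adjusted p = 6.68e-06), and Dnajc19, a co-chaperone of the import motor, was lowest (-1.42, limma adjusted p = 0.000256). With MLN0128 6 of the 19 fell and none rose, or 31.6% lower against 17.1%, Timm22 the most (-0.70, limma adjusted p = 0.00449). With MLN0128 replicate 3 alone 3 were lower, Timm22 among them (-0.84, limma adjusted p = 0.0267), against 7.50% of all genes. With everolimus none was called, nor was any at an unadjusted p below 0.05. Against everolimus, MLN0128 had 2 lower, Vdac3 and Tomm22, and both calls were lost with replicate 3 alone (limma adjusted p = 0.176 and 0.0968).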

How the data were processed

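RNA of 12 mouse liver or liver tumor samples, 3 a group, was sequenced by the study's provider. Reads were counted per Ensembl gene and named by symbol, and the authors deposited FPKM values (fragments per kilobase of gene and unit of depth, on library sizes scaled by the authors). The submitters' notes name GRCm38 and FastQC 0.11.7, and the aligner and gene lengths are not given in the sources used here. All 12 value columns were matched to samples by name, and 0 columns were left unmatched. Whole read counts could be recovered, since 98.2 to 98.8% of the values worth fewer than 20 reads fell on whole multiples of 1 read. They were used for depth (17188570 to 25208871 reads per library), intervals, which cover counting error only, and voom.

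The values were tested as log2(FPKM + 1) by limma 3.58.1 in R 4.3.3, with an intensity trend, all 12 libraries in one fit (8 residual degrees of freedom), genes of at least 0.5 FPKM in 3 libraries, and Benjamini-Hochberg adjustment over all 14397 such genes. A call is an adjusted p below 0.05. The same script was tested on simulated data. Nothing states that the replicates of a group were independent animals, so p-values measure the spread between these samples. The 82 genes and all gene lists were chosen with earlier results of these data known. Genes were named by a rule, the largest called fall and rise of each complex in each comparison, together with a list of catalytic and isoform genes, of which 1 is not reported here, and others are named where a count was small. Alternatives were another filter, no filter, a pseudocount of 0.1, median-ratio, TPM and plain-total scaling, no trend, voom, a 1.5-fold null, the compared groups alone, a replicate block, and leaving libraries out. Same-numbered replicates did not deviate together (r from -0.29 to 0.15 over 18 pairs). Similar transcripts were found with BLAST 2.17.0 in the reference annotation. Tables were handled with pandas 2.3.3 and drawn with matplotlib 3.10.9.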

Additional observations from a re-analysis of the deposited data

How the results depend on the processing

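Of 288 recomputed counts and medians of the 82 genes, 242 kept within 1.5 times the count or 1 SD of the median, 44 moved further and 2 reversed. For vehicle against NL, the TPM scale gave 43 higher and 5 lower, against 67.0% and 11.7% of all tested genes, with a median of 0.46. Plain library totals gave 28 and 12, against 61.3% and 15.2%, with a median of 0.20. The 1.5-fold test gave 1 higher and 23 lower, against 15.9% and 16.9%. For MLN0128 against vehicle, the higher count was 3 on the TPM scale, 2 on plain totals, 0 in the 1.5-fold test, 2 with the replicate block and 0 without MLN0128 replicates 1 and 2, and the lower count was 1 in the 1.5-fold test. For everolimus against vehicle, the higher count was 1 on plain totals and 1 without MLN0128 replicates 1 and 2. For MLN0128 against everolimus, the higher count was 1 on both other scales, and the lower count was 4 on the TPM scale, 0 in the 1.5-fold test, 0 with the compared groups alone, 3 with the replicate block and 1 without MLN0128 replicates 1 and 2. The block changed calls although the numbers did not pair the samples, with 51 genes lower in vehicle than in NL and 17 lower with MLN0128 than with vehicle. Apart from scaling, fewer samples and the stricter null, the cause was not tested.

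Leaving out 1 library gave 2 to 4 higher and 48 to 59 lower genes in vehicle against NL, with medians from -0.80 to -0.69. For MLN0128 against vehicle it gave 1 to 3 higher and 6 to 49 lower, with medians from -0.64 to -0.30. For everolimus it gave 0 to 1 higher and 0 to 0 lower, with medians from -0.16 to 0.10. For MLN0128 against everolimus it gave 0 to 1 higher and 0 to 22 lower, with medians from -0.57 to -0.22. The sign of the everolimus median alone changed among these.

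Over the named genes, 2394 recomputed results kept their side of the threshold, and 36 gained and 153 lost a call. Another 25 involved a call and reversed direction, all in vehicle against NL. Where neither fit gave a call, the direction was not compared. Values on the TPM scale and on plain totals were 0.82 and 0.55 for Atp5g1, 0.80 and 0.54 for Atp5g2, 0.87 and 0.60 for Atp5g3, 1.11 and 0.85 for Cox4i1, 0.84 and 0.57 for Cox5a, 0.38 and 0.12 for Cox6a1, 0.56 and 0.30 for Cox6b1, 1.05 and 0.78 for Cox7a2l, 0.74 and 0.47 for Ndufs1, 0.53 and 0.26 for Ndufv1, 0.47 and 0.20 for Sdhb, and 0.49 and 0.22 for Uqcrfs1. Cox8a reversed on the TPM scale only, at 0.24. Depth limits Cox6a2, Cox4i2 and Cox8b, which rest on few reads.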

Other observations

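Of 18 regulators of mitochondrial biogenesis, 7 were higher and 5 lower in vehicle than in NL on the authors' scale, or 38.9% and 27.8%, near the 36.0% and 33.0% of all tested genes. By TPM 14 were higher and 0 lower, where 67.0% and 11.7% of all genes were. With MLN0128, 6 were higher than with vehicle and none lower, or 33.3% higher against 14.9%, and 9 and 0 on the TPM scale, where 24.6% of all genes were higher. With MLN0128 replicate 3 as the only library of its group, 1 was higher and 0 lower. Twnk, the helicase that unwinds mitochondrial DNA, had 7.17 to 10.7 FPKM in NL, 14.5 to 17.7 in vehicle, 31.8 to 44.3 in MLN0128 and 21.6 to 26.1 in everolimus, so that none of the 4 groups overlapped. It was higher with MLN0128 than with vehicle (1.17, limma adjusted p = 0.000483) and than with everolimus (0.67, limma adjusted p = 0.0265). With MLN0128 replicate 3 alone, the first call held (0.91, limma adjusted p = 0.0244) and the second was lost (0.41, limma adjusted p = 0.324). Pprc1, a coactivator related to PGC-1, had 1.81 to 3.6 FPKM in NL and 12.6 to 15.1 in vehicle (2.03, limma adjusted p = 1.53e-06), whereas Mterf3, a repressor of mitochondrial transcription, was lower (-0.76, limma adjusted p = 0.000169). With everolimus none of the 18 was called. Of their estimates 16 were positive, and 7 were higher at an unadjusted p below 0.05. Among all 14397 tested genes, 7878 estimates were positive and 1920 were higher at that threshold.

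In coenzyme Q synthesis, 4 of 11 genes were higher and 3 lower in vehicle than in NL, or 36.4% and 27.3%, near the 36.0% and 33.0% of all tested genes. By TPM all 11 were higher, where 67.0% of all genes were. Pdss1, which makes the side chain of coenzyme Q, went from 1 to 1.62 FPKM in NL to 7.12 to 9.21 in vehicle (1.98, limma adjusted p = 1.3e-06). No gene of this list was called in the 3 drug comparisons by limma on the authors' scale, where 2 were lower with MLN0128 than with vehicle at an unadjusted p below 0.05.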
